A study of Homo sapiens with 2 samples.

Results

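Histone lysine acetyltransferases move an acetyl group from acetyl-CoA to lysines of histone tails, which loosens the hold of histones on DNA and creates docking sites for bromodomain proteins. They fall into families that differ in their catalytic fold: the GNAT enzymes, of which KAT2A (GCN5), KAT2B (PCAF) and HAT1 were measured here; the MYST enzymes KAT5 (TIP60), KAT6A (MOZ), KAT6B (MORF), KAT7 (HBO1) and KAT8 (MOF); and the paralogous coactivators EP300 (p300) and CREBBP (CBP). Most work inside large complexes whose other subunits choose the nucleosome and the lysine. These 10 genes were chosen by name from the 18930 genes of the deposited table, and all 10 had counts and passed the minimum of 10 reads over both libraries that 16210 genes passed.

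The study asked which genes differ between dacarbazine-resistant (DR) A375 cells and wild-type (WT) controls. A375 is a human melanoma cell line, and dacarbazine (DTIC) kills dividing cells by alkylating their DNA. The DR cells of the study are those that survived rising concentrations of the drug. The labels, however, give A375 and 105 days of treatment (spelled DITC) for both libraries, the WT-labelled one included. There was 1 RNA-seq library for each label, so that no difference below has a replicate check. Every interval given is a 95% interval for read counting only, reads carry no molecular identifiers, and each comparison is between 2 libraries rather than between 2 conditions.

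The assignment of the columns and the identity of the cells limit what the labels mean. The column of each library was taken from the description of its sample, and the column names of both libraries differ by a single character. Both names resemble the title of the DR sample, and neither the column given to the WT sample nor its description says wild type, as that sample's title and group do. Every direction, and the WT label of that column, therefore rests on the descriptions. The libraries held 54878310 reads (DR) and 35294629 reads (WT). Levels of different genes are given as TPM, the reads of a gene divided by its length and scaled to a common total in each library. Of the 8 melanocytic markers, 6 had counts, and 0 of these exceeded the median over the tested genes in either library. Their summed level was 16.5 TPM in the DR-labelled library and 15.2 TPM in the WT-labelled library. SOX10, a transcription factor of the melanocyte lineage, had 3 reads and 0 reads, and TYRP1, a pigment enzyme, had 0 reads and 17 reads. MITF had 1922 and 1211 reads, PMEL 248 and 82, MLANA 123 and 89, and DCT 13 and 9. All 10 plasma cell markers lay above the median in both, with summed levels of 6560 and 7930 TPM. Fibroblast markers (3 of 5 with counts) summed to 3.91 and 1.21 TPM and keratinocyte markers (3 of 4 with counts) to 21.6 and 25.7 TPM. The part that cell identity has in the differences below was not tested, and the samples are called by their labels.

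By level, KAT2A and HAT1 led the 10 genes in both libraries and KAT6B was last. KAT2A, the catalytic subunit of the SAGA and ATAC complexes, stood at 133 TPM in the DR-labelled library (95% Poisson interval 130 to 136) and at 126 TPM in the WT-labelled library (123 to 129). That placed it at percentile 92.1 and 91.0 of all genes tested. HAT1, which acetylates newly made histone H4 before it is deposited on DNA, followed with 79.8 and 82.9 TPM. KAT6B, the catalytic subunit of MORF complexes, had 8.64 and 11.0 TPM and was the single member under the median over the tested genes, which was 14.4 TPM (DR) and 14.5 TPM (WT).

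The middle of the order was not the same in both libraries. In the DR-labelled library KAT8 (49.1 TPM) and EP300 (48.1 TPM) had overlapping counting intervals, ahead of KAT5 (43.5 TPM), KAT7 (35.6 TPM) and CREBBP (31.5 TPM). In the WT-labelled library EP300 (64.9 TPM) and KAT5 (57.2 TPM) came before KAT8 (50.9 TPM), whose interval overlapped that of KAT7 (48.6 TPM), and CREBBP followed with 45.0 TPM. KAT2B and KAT6A could not be ordered by reads in either library, with 19.4 and 19.3 TPM in the DR-labelled library and 24.0 and 25.02 TPM in the WT-labelled library. KAT8 thus moved from place 5 to place 3 at nearly the same level. All other neighbours in these orders had counting intervals that lay apart, although the length that stands behind a TPM is a single value per gene.

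**Figure D1:**
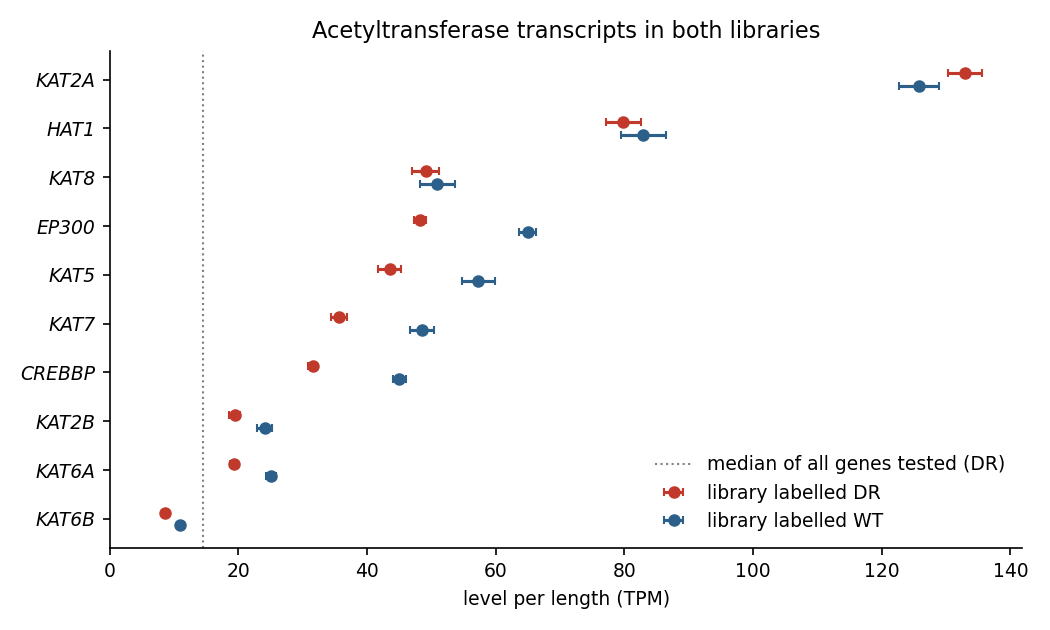
Level of each acetyltransferase gene in TPM on a linear axis, with 1 point for each library and bars for the 95% Poisson interval of the reads; the dotted line is the median over the tested genes for the DR-labelled library. KAT2A and HAT1 lie to the right of the other genes in both libraries, and the points for CREBBP, KAT7, KAT5 and EP300 lie further left in the DR-labelled library.

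Summed over the 10 genes, the level was 468 TPM in the DR-labelled library and 535 TPM in the WT-labelled library. The GNAT enzymes made up 49.6% of that sum in the DR-labelled library and 43.5% in the WT-labelled library. The MYST enzymes held 33.4% and 36.0%, and EP300 with CREBBP held 17.0% and 20.5%. KAT2A alone accounted for 28.4% and 23.5%. Counted per read without dividing by length, KAT2A made up 21.8% and 16.8% of the reads scaled to library size (CPM, the unit used for differences), and the long transcripts of EP300 made up 21.8% and 24.0%.

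Differences between the libraries were then taken for each gene as the log2 fold change of DR over WT on the scale of log2 (CPM + 0.5), after TMM scaling, which sets most genes near no difference. None of the 10 genes reached a log2 fold change of 1 in size, a threshold that 11.6% of all genes tested passed (7.48% on the higher and 4.16% on the lower side), and none reached 0.5, which 31.6% of all genes passed. Within that limit 7 of the 10 had an interval wholly below 0, against 34.6% of all genes tested, 1 had an interval wholly above 0, against 35.8%, and 2 had intervals that included 0. Genes with many reads have narrow intervals. Among the 5403 genes with a mean CPM inside the range of the 10 members, 48% had an interval wholly below 0 and 5.68% passed the log2 fold change of 1. The median log2 fold change of the 10 genes was -0.34, beside -0.05 for these 5403 genes and 0.01 for all genes tested. The median size of the difference was 0.34, beside 0.31 for all genes tested. In bulk RNA, fewer cells of a type and less RNA per cell cannot be told apart.

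EP300 and CREBBP, the coactivators that acetylate H3K27 at enhancers, were both lower in the DR-labelled library. EP300 (NCBI Gene 2033) had 10371 reads there and 8668 in the WT-labelled library, which is 187 and 249 CPM. This gave -0.41 as the log2 fold change, with a 95% Clopper-Pearson interval of -0.45 to -0.37. CREBBP (NCBI Gene 1387) had 7600 and 6731 reads, or 137 and 193 CPM. Its log2 fold change was -0.496 (-0.54 to -0.45), the lowest of the 10 genes and at percentile 14.1 of all genes tested. Both genes had more raw reads in the DR-labelled library, which is the deeper by 1.55 times, and fewer after scaling. Summed over both paralogues the log2 fold change was -0.45 (-0.48 to -0.42).

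Among the MYST enzymes, 4 of 5 had an interval wholly below 0, against 34.6% of all genes tested, and their differences were of similar size. KAT7, which acetylates H3K14 and H4 and takes part in the licensing of replication origins, had 3110 and 2633 reads in the DR-labelled and WT-labelled libraries, or 56.0 and 75.5 CPM. Its log2 fold change was -0.43 (-0.50 to -0.35). KAT5, the catalytic subunit of the NuA4/TIP60 complex that acts in transcription and in double-strand break repair, had 42.0 and 54.5 CPM and a log2 fold change of -0.37 (-0.46 to -0.29). KAT6A, the catalytic subunit of MOZ complexes, had 80.1 and 103 CPM and a log2 fold change of -0.35 (-0.42 to -0.29). KAT6B had 31.0 and 38.8 CPM and a log2 fold change of -0.32 (-0.42 to -0.22). The intervals of these 4 genes overlapped one another. KAT8, which acetylates H4K16 within the MSL and NSL complexes, stood apart from them with 37.6 and 38.5 CPM and a log2 fold change of -0.03 (-0.13 to 0.07), which became 0.0016 when libraries were scaled by their totals. Of the exon bases that GENCODE 29 gives for KAT5, 38.6% are shared with RNASEH2C on the opposite strand. Whether the counting used strand is not given in the sources used here, so that reads of KAT5 and RNASEH2C, whose log2 fold change was 0.15, may not be separable.

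The GNAT enzymes split. KAT2A (NCBI Gene 2648) had 10348 reads in the DR-labelled library and 6068 in the WT-labelled library, or 186 and 174 CPM. With a log2 fold change of 0.10 (0.05 to 0.14) it was the single member on the higher side in the DR-labelled library. KAT2B (NCBI Gene 8850), its close paralogue, which replaces it in a part of the SAGA and ATAC complexes, had 2083 and 1600 reads, or 37.5 and 45.9 CPM, and a log2 fold change of -0.29 (-0.38 to -0.19). HAT1 (NCBI Gene 8520) had 61.9 and 63.5 CPM and a log2 fold change of -0.04 (-0.11 to 0.04), so that no difference was detectable at this depth. For the sum of the 3 GNAT genes the log2 fold change was 0.01 (-0.03 to 0.05).

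**Figure D2:**
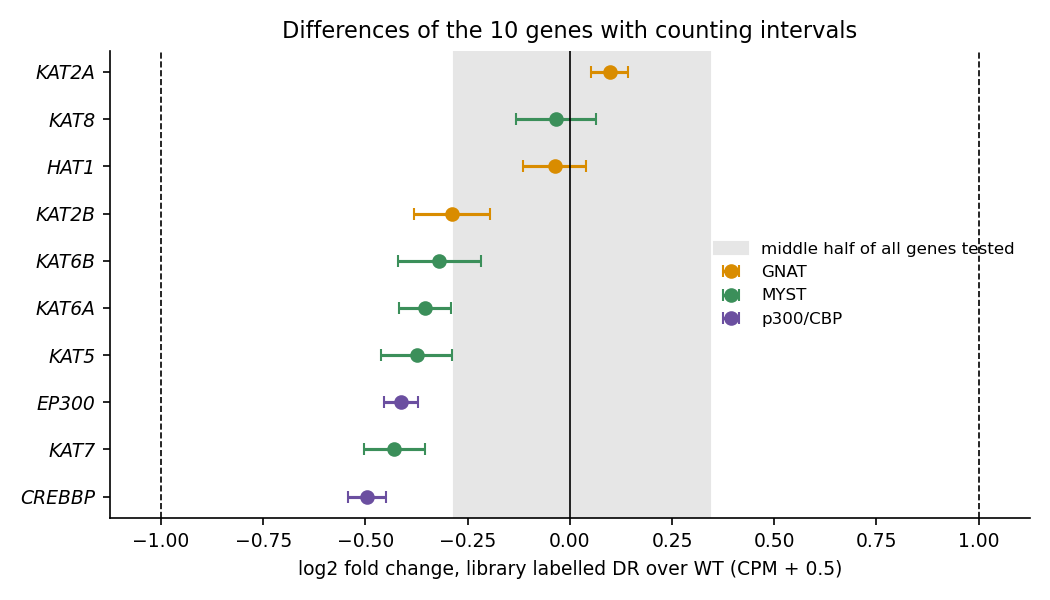
Log2 fold change of each gene, DR-labelled over WT-labelled library, on the scale of log2 (CPM + 0.5), coloured by family with 95% Clopper-Pearson intervals for read counting; the grey band holds the genes from percentile 25 to percentile 75 of all genes tested (-0.28 to 0.34), and dashed lines mark 1 and -1. CREBBP, KAT7, EP300, KAT5, KAT6A, KAT6B and KAT2B lie at -0.29 or lower, while KAT8, HAT1 and KAT2A lie near 0.

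A ratio of reads of 2 genes within a library does not depend on how the libraries are scaled. For KAT2A over KAT2B the ratio was 4.97 in the DR-labelled library and 3.79 in the WT-labelled library, a change of 1.31 times (exact conditional 95% interval 1.22 to 1.41). Divided by length, KAT2A exceeded KAT2B 6.85-fold and 5.23-fold. EP300 over CREBBP differed far less, with 1.36 and 1.29 and a change of 1.06 times (1.01 to 1.11). KAT6A over KAT6B gave 2.58 and 2.64, a change of 0.979 times (0.899 to 1.06), which includes no change.

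KAT2A was also set against each of the other 9 genes in the same way. It was chosen as the gene with the highest log2 fold change of the 10, which fixes the direction of all 9 changes. Apart from the pseudocount, the sizes restate the log2 fold changes given above and add no further result. The change was smallest against KAT8 (1.10 times, 1.01 to 1.18) and HAT1 (1.10 times, 1.03 to 1.17). It was largest against CREBBP (1.51 times, 1.44 to 1.58), KAT7 (1.44 times, 1.36 to 1.53) and EP300 (1.43 times, 1.37 to 1.49). In the WT-labelled library KAT2A had 0.902 reads for each read of CREBBP, and in the DR-labelled library it had 1.36. Since all 9 ratios share the reads of KAT2A, they are not separate observations.

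**Figure D3:**
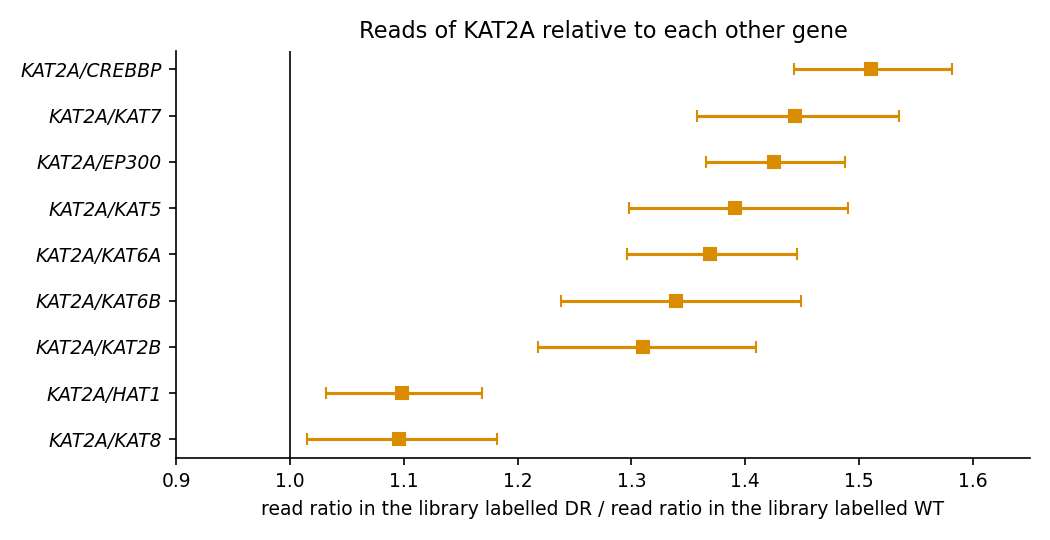
Read ratio of KAT2A to each of the other 9 genes in the DR-labelled library divided by the same ratio in the WT-labelled library, on a linear axis with exact conditional 95% intervals; the vertical line marks no change at 1. The points run from 1.10 for KAT8 and HAT1 to 1.51 for CREBBP; the side of the line follows from the choice of KAT2A.

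The promoters of this GNAT pair, whose read ratio differed most of the 3 paralogue pairs, are shown for reference from 250 bases before to 50 bases after the RefSeq start (GRCh38.p14, a later build than the hg19 of the submitters' processing notes), written 5′ to 3′ on the strand of the gene. KAT2B is at chr3:20040196-20040495 on the plus strand and KAT2A at chr17:42121318-42121617 on the minus strand. Capitals mark GC boxes, GGGCGG or CCGCCC.
KAT2B: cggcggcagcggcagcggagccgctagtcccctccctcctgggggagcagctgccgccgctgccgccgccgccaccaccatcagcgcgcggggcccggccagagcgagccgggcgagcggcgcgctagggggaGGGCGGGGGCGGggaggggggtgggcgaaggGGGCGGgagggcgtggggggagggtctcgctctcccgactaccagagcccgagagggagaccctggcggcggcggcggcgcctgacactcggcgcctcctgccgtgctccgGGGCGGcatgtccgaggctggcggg
KAT2A: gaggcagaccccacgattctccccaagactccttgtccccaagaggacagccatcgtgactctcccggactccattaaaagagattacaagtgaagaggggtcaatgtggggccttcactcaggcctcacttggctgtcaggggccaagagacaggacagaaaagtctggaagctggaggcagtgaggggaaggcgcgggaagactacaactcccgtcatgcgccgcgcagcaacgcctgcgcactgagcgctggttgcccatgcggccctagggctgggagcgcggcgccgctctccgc
The KAT2B window held 4 GC boxes, 40 CpG dinucleotides and 80.3% G and C. The KAT2A window held 0 GC boxes, 18 CpG dinucleotides and 62.0% G and C. Of 35116 such windows of all genes, 45% held a GC box, and their medians were 14 CpG dinucleotides and 58.7% G and C. The RefSeq table gave 11 windows for 8 of the 10 genes, with KAT6A and KAT8 not among them. Of the 11, 8 held a GC box. These include every window of KAT6B and of CREBBP, which gave more than 1 each, so the windows are not separate genes. The 11 windows had medians of 69% G and C and 33 CpG dinucleotides, above those of all windows. The E-box CACGTG was in 1 of the 11, that of KAT5, against 7.26% of all windows. The CRE TGACGTCA was in 0 of the 11 against 1.85%, and CCAAT or its reverse ATTGG in 2 of the 11 against 34.6%.

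The subunits that work with these enzymes were compared from lists written from general knowledge. In SAGA, the coactivator of KAT2A and KAT2B, the median log2 fold change of 18 subunits was -0.24, with 12 intervals wholly below 0 and 4 wholly above. Of all genes tested, 34.6% had intervals wholly below 0, 35.8% wholly above, and 11.6% passed a log2 fold change of 1. Past a log2 fold change of 1 were SUPT3H, a histone-fold subunit (3.10 CPM in the DR-labelled and 18.6 CPM in the WT-labelled library, log2 fold change -2.41, interval -2.63 to -2.19), and SUPT20H, a scaffold subunit (23.6 and 47.8 CPM, -1.001, interval -1.10 to -0.90). SUPT20H lay at the threshold and was past it neither with scaling by library totals nor with a pseudocount of 5 CPM. TRRAP, the large scaffold that SAGA shares with NuA4/TIP60, was the subunit furthest to the higher side, at 0.26. In ATAC, the other complex of the pair, the median over 11 subunits was -0.02 (0.01 with scaling by library totals), with 5 intervals below 0 and 3 above, from MBIP (-0.72) to the reader YEATS2 (0.34).

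The NuA4/TIP60 complex of KAT5 had a median of -0.18 over 17 subunits, with 12 intervals below 0 and 3 above. Over all genes tested these shares were 34.6% and 35.8%, and 11.6% passed the log2 fold change of 1. EPC1, which links the catalytic module to the rest of the complex, passed the threshold with 17.2 and 41.8 CPM and a log2 fold change of -1.25 (-1.37 to -1.14). BRD8, a bromodomain subunit, lay furthest the other way at 0.76 (0.69 to 0.83). The scaffolds of the MOZ/MORF and HBO1 complexes had a median of -0.02 over 9 genes (0.01 with scaling by library totals), with 4 intervals below 0 and 2 above. BRPF1, the scaffold that activates KAT6A and KAT6B, had -0.52, and the reader ING4 had 0.52. For the MSL and NSL complexes of KAT8 the median over 11 genes was -0.10, with 6 intervals below 0 and 2 above, from HCFC1 (-0.60) to MSL3 (0.33). Among the 5 partners and chaperones of HAT1 the median was 0.01, with 2 intervals below 0 and 2 above. RBBP4, a histone-binding subunit, had 0.11, and the histone chaperone ASF1A had -0.76. None of the MOZ/MORF and HBO1, MSL and NSL or HAT1 partner genes passed the log2 fold change of 1.

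Regulators of EP300 and CREBBP had a median of -0.16 over 8 genes. None passed the log2 fold change of 1 at the pseudocount of 0.5 CPM, which 11.6% of all genes tested passed. The median of the 8 was -0.10 at 5 CPM. CITED2, which competes with other activators for a domain of both coactivators, had 203 CPM in the DR-labelled library and 109 CPM in the WT-labelled library, a log2 fold change of 0.90 (0.85 to 0.95). EID2, an inhibitor of EP300, had -0.57. CITED4, of the same family as CITED2, had 27 reads in the DR-labelled library and 0 in the WT-labelled library. Against a floor of 3 reads in that library it was at least 5.65-fold higher, which puts it past the threshold, as does a pseudocount of 0.1 CPM, and leaves the list's median at -0.16. Other acetyltransferases, such as nuclear receptor coactivators and N-terminal enzymes, had a median of -0.08 over 18 genes. Of their intervals, 9 lay below 0 and 5 above, against 34.6% and 35.8% of all genes tested. Among the 18 the coactivators NCOA1 (-0.85) and NCOA3 (0.55) lay at opposite ends.

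Over the 18 lysine deacetylases listed, the median log2 fold change was 0.06, with 8 intervals wholly above 0 and 5 wholly below. None passed a log2 fold change of 1. Of all genes tested, 35.8% had intervals wholly above 0, 34.6% wholly below, and 11.6% passed a log2 fold change of 1. HDAC9, a class II enzyme, had 46.8 CPM in the DR-labelled library and 25.04 CPM in the WT-labelled library and a log2 fold change of 0.89 (0.78 to 0.9996). HDAC2, a class I enzyme of the NuRD and Sin3 complexes, had 82.8 and 108 CPM and a log2 fold change of -0.39 (-0.45 to -0.32).

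**Figure D4:**
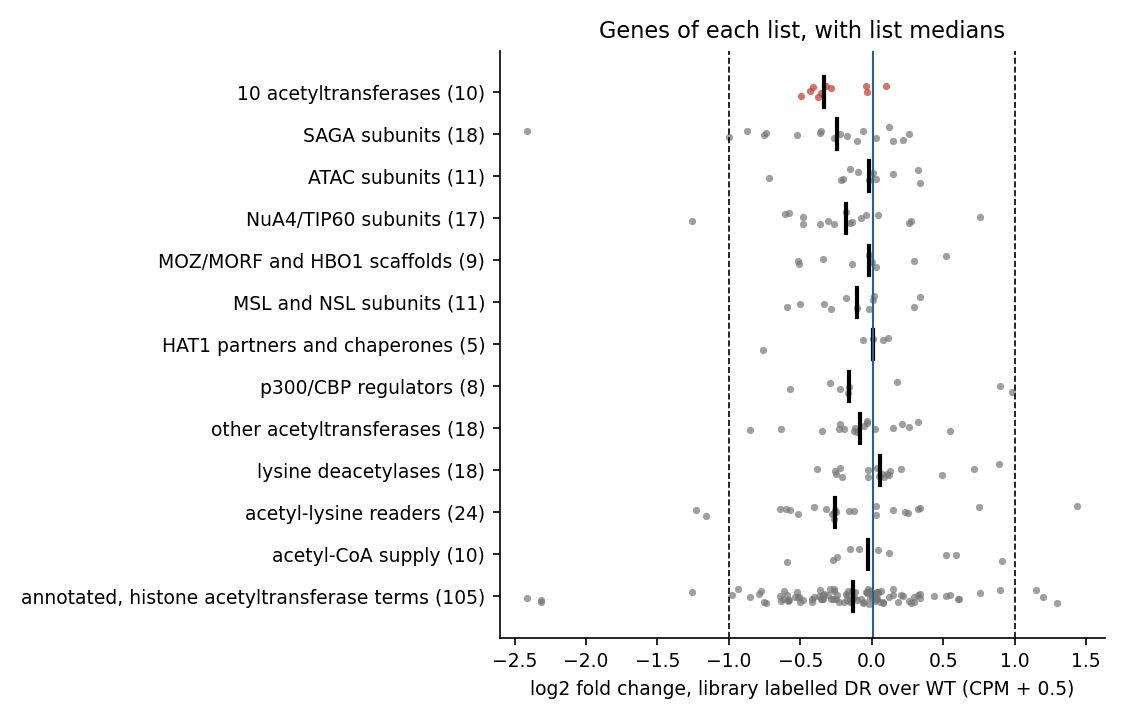
Log2 fold change of each gene of each list, DR-labelled over WT-labelled library, with a black bar at the list median, a blue line at the median of all genes tested (0.01) and dashed lines at 1 and -1; the number of genes is in parentheses. The 10 acetyltransferases have the lowest median of the lists drawn (-0.34) and a narrow spread from -0.496 to 0.10, and the deacetylases have the highest (0.06).

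The table's own Gene Ontology annotation gave a wider set. Of the genes tested other than the 10, 105 carried a term that names histone acetyltransferases (activity, binding or complex). Their median log2 fold change was -0.13, with 56 intervals below 0 and 23 above (34.6% and 35.8% of all genes tested). Past a log2 fold change of 1 were 3 genes on the higher and 4 on the lower side, 6.67% of the set against 11.6% of all genes tested. The higher ones were ARRB1, a signalling adaptor (1.30), EGR1, an immediate early transcription factor (1.20), and EPAS1, a hypoxia-inducible factor (1.15). The lower ones were SUPT3H and EPC1, described with their complexes, the transcription factor FOXP3 (-2.31, at 0.594 and 4.93 CPM) and TRAM1, a gene of protein translocation into the endoplasmic reticulum (-2.31). With a pseudocount of 5 CPM the low genes ARRB1 (0.62), EGR1 (0.38) and FOXP3 (-0.83) were no longer past the threshold, which left 4.

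The length of the transcript differed among the members. Of the 4 members longer than 8000 bases (EP300, CREBBP, KAT6A and KAT6B) all were lower in the DR-labelled library, while the 784 genes of that length had a median log2 fold change of -0.05 and an interval wholly below 0 in 41.7%. The 2 members of 2000 bases or fewer, KAT8 (-0.03) and HAT1 (-0.04), also lay below 0, with intervals that included it, and the 4397 genes of that length had a median of 0.06. The part of length in the differences of the members was not tested.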

How the data were processed

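The data were 2 RNA-seq libraries, 1 for each label. The authors deposited 1 table of 18930 genes that holds an estimated count per gene for each library, not scaled for depth, with gene lengths and annotation. The submitters' processing notes name Bowtie 0.12.2 and hg19 without a role, and the counting tool, annotation and use of strand are not given in the sources used here. The columns of the authors' own comparison (log2 ratio, p-value, q-value, direction) were not used. For 663 genes no count is given.

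Estimated counts were rounded and scaled by the TMM method of edgeR 4.0.16 (R 4.3.3), factors 1.01 and 0.988. The 2057 genes under 10 reads in total were left out, and 0.5 CPM was added before log2. Gene identifiers of 18583 genes matched RefSeq. Intervals and figures used Python 3.11.15, SciPy 1.17.1, NumPy 2.4.6, pandas 2.3.3 and matplotlib 3.10.9. The quasi-likelihood test could not be fitted with 1 library per label, so no p-value is given. The steps were tested on simulated data with spread from read counting alone and with changes larger than those of the members. That test does not cover differences of the size described here. Alternatives were DESeq2 1.42.0 size factors, library totals, pseudocounts of 0.1 and 5 CPM, no filter, at least 50 reads, a threshold of 0.5, counts not rounded and shares not per length. Named from each list were genes past a log2 fold change of 1 at a mean of at least 1 CPM, or else the furthest gene in each direction at 5 CPM. Members and lists were chosen with earlier results of these data known. CITED4, RNASEH2C and the single melanocytic markers were named after their values were seen.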

Additional observations from a re-analysis of the deposited data

How the results depend on the processing

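No paired analysis was possible because each label has 1 library, which also leaves none to leave out in turn. None of the 10 genes passed the threshold under any alternative. Their median log2 fold change, -0.34, ranged from -0.34 to -0.30 over scaling, pseudocount and filter alternatives. The number of members below 0 was 9, and it was 8 with scaling by library totals, where KAT8 lay at 0.0016. Of the 16210 genes tested, 7933 lay below 0 and 8277 above at the main setting. Scaling by totals moved the member and list medians up by at most 0.04 and turned those of the ATAC subunits, the MOZ/MORF and HBO1 scaffolds and acetyl-CoA supply from -0.02 to 0.01. The 5 CPM pseudocount moved the medians of the EP300 and CREBBP regulators and of the readers to -0.10 and -0.18. The paralogue ratios were the same to 3 digits without rounding. Over all genes, 1212 were higher and 674 lower past the threshold. These became 423 and 333 with a pseudocount of 5 CPM, which shrinks the folds of low genes, and a threshold of 0.5 gave 2873 and 2254 by construction. Shares of the summed level moved for 19 of 20 values when not divided by length. All percentiles by level moved with the filter, since the filter sets how many low genes are ranked. In the DR-labelled library KAT6B ranged from 34.5 (at least 50 reads) to 48.2 (no filter), and KAT2A from 91.1 to 93.0. With 1 library per label the spread between samples is unknown, so that differences of the size seen here cannot be set against it.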

Other observations

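Proteins that bind acetylated lysines and enzymes that supply acetyl-CoA were described in the same way. Over 24 readers with bromodomains or YEATS domains the median log2 fold change was -0.25, with 14 intervals wholly below 0 and 7 wholly above. Past a log2 fold change of 1 were MLLT3, a YEATS reader of the super elongation complex (22.4 CPM in the DR-labelled and 53.0 CPM in the WT-labelled library, -1.23, interval -1.33 to -1.12), TRIM24 (43.4 and 97.8 CPM, -1.16, interval -1.24 to -1.09) and CECR2 on the higher side (3.65 and 1.03 CPM, 1.44, interval 1.06 to 1.81). With a pseudocount of 5 CPM the log2 fold change of CECR2 was 0.52, under the threshold, and the median of the list was -0.18. At the main setting 12.5% of the readers and 11.6% of all genes tested passed the threshold. Intervals lay wholly below 0 for 34.6% and wholly above for 35.8% of all genes tested.

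For 10 genes of acetyl-CoA supply the median was -0.02 (0.01 with scaling by library totals), with 5 intervals above 0 and 4 below. None passed a log2 fold change of 1. Over all genes tested, 35.8% had intervals above 0, 34.6% below, and 11.6% passed that threshold. ACSS1, which makes acetyl-CoA from acetate in mitochondria, had 141 and 74.6 CPM and a log2 fold change of 0.91 (0.85 to 0.97). SLC25A1, the carrier that exports citrate for acetyl-CoA synthesis in the cytosol, had 39.2 and 59.4 CPM and a log2 fold change of -0.59 (-0.68 to -0.51).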
